A study of Homo sapiens with 6 samples.

Results

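The longest coding genes of the human genome held few R-loop peaks, and those peaks lay at transcript starts, at other genes inside the long record, at transcript ends, or away from all of these, some of them in repeated sequence. The genes described here are the 323 protein-coding genes on chromosomes 1 to 22 and X whose record in GENCODE release 44, mapped to GRCh37, is longer than 500000 bp, of 20098 coding genes on these chromosomes. They were chosen by length alone. A gene record runs from the outermost start to the outermost end of all annotated transcripts of a gene. The records ranged from 500057 bp to 2474 kb with a median of 726 kb, 71 of them were over 1 Mb, 6 genes are named only by their identifier, and 8 overlap another of these genes.

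R-loops were mapped by spKAS-seq, a method in which N3-kethoxal reacts with unpaired guanines and the labelled strand, such as the one displaced by an RNA:DNA hybrid, is enriched and sequenced. HEK293T is a human embryonic kidney line that carries the SV40 large T antigen. Cells were untreated, or were exposed for 3 h to 10 μM N2-heptynyl-dG, a modified nucleoside that cells build into their DNA, and both kinds of culture were then labelled with 5 mM N3-kethoxal for 10 min. There were 2 samples of each kind and 2 inputs, but the data used here are 1 peak list per condition, in which a line gives the borders of a peak and its strand but neither its height nor its depth. A difference between the conditions therefore has no replicate check. Intervals given below are 95% Wilson intervals for shares and 95% exact Poisson intervals for densities. They cover counting error only, since neighbouring peaks are not independent.

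An R-loop forms when nascent RNA pairs with the template strand behind RNA polymerase and leaves the other strand single. Promoters with CpG islands and regions past the polyadenylation site are known places of R-loop formation. Very long genes are of interest because a single round of transcription can span much of the cell cycle, and many of these genes, FHIT, WWOX, DMD and MACROD2 among them, lie at common fragile sites, chromosome regions that break under replication stress. Many encode proteins of the synapse and of cell adhesion that act mainly in neurons, which HEK293T cells are not, and the expression of these genes was not measured in the lists.

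The sequences that follow are read 5′ to 3′ in hg19. Start sites come before the others, because most peaks in the long genes lay within 2 kb of a start. For the pair below, 200 bases before an annotated start with a shared peak are printed, with each CG dinucleotide in capitals. CG was present in 95.0% of the same windows over all 20098 coding genes. For DLG2 the start is that of the record, and for CNTNAP2 it is an inner start deep in the record.
DLG2, chr11:85339380-85339579, minus strand: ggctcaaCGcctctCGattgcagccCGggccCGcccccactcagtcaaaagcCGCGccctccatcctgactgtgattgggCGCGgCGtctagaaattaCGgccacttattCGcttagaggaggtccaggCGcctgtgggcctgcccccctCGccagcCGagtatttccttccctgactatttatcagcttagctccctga
CNTNAP2, chr7:148036353-148036552, plus strand: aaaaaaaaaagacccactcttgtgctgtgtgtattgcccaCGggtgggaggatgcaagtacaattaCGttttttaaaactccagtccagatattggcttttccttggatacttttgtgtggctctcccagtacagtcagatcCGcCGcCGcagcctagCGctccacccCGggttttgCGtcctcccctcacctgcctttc

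Tandem repeats are shown next, because they made up 5 of the 20 untreated peaks that lay within 2 kb of no start and within 5 kb of no transcript end on their own strand. Each is read on the strand that the list gives to the peak, taken as written, at the middle of the peak, outside every annotated exon, and the capitals mark a single repeat unit at the spacing with the most matching bases.
CELF2, chr10:11326074-11326177, plus strand: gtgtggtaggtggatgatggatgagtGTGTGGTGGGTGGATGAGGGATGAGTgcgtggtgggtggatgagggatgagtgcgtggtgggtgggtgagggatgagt
PTPRN2, chr7:157940861-157941012, plus strand: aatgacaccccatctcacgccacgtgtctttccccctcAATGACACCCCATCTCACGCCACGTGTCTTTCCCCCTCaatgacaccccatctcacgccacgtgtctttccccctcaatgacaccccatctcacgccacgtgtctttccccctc
SDK1, chr7:4016401-4016600, minus strand: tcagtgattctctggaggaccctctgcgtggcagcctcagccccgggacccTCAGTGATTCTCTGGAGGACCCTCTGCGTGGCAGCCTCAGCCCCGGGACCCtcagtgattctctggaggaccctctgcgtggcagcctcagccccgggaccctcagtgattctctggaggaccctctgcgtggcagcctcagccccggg

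The units were 26 bases in CELF2, 38 bases in PTPRN2 and 51 bases in SDK1, and bases 1 unit apart matched at 76.7%, 96.9% and 84.0% of positions of the whole peak. The CELF2 peak was 55.1% G and 1.47% C on its strand, whereas the PTPRN2 peak was 10.5% G and 47.6% C.

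Peaks were counted where they overlapped a gene record or 2 kb on either side. The untreated list had 140 peaks in the long genes, of 10231 in all, and the treated list had 151 of 11085. Over the 270 Mb that these windows cover, this is 0.518 peaks per Mb (95% interval 0.436 to 0.611) untreated and 0.559 (0.473 to 0.655) treated. The intervals overlap, but a difference in density was not tested, since there is 1 list per condition and the lists share many peaks. Density fell steeply with gene length. It was 36.0 and 38.0 per Mb in genes of up to 20 kb, 12.3 and 13.3 in genes of 20 to 100 kb, and 2.88 and 3.22 in genes of 100 to 500 kb, untreated and treated. Genes of 100 to 500 kb were 5.56 and 5.76 times as dense as the long genes, and the smallest class was 69.4 and 68.1 times as dense. The long genes were also below the whole chromosomes, at 3.35 and 3.63 peaks per Mb. Short genes also have more starts per Mb, and the counts by gene and in the interior of genes follow for that reason.

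Counted by gene, the gap was far smaller. A peak was present in 111 long genes in the untreated list (34.4%, 29.4 to 39.7) and in 116 in the treated list (35.9%, 30.9 to 41.3), beside 41.8% and 43.9% of all coding genes. The intervals of the long genes lie below both background shares and below the 41.2% and 44.8% of genes of 100 to 500 kb, but they include the 37.0% and 38.1% of genes of up to 20 kb, so a lower share by gene is not particular to the long genes. At the start of the record itself, within 2 kb, 53 long genes (16.4%, 12.8 to 20.8) had an untreated peak and 56 (17.3%, 13.6 to 21.8) a treated one. In coding genes of 500 kb or less these shares were 26.2% and 28.5%, above both intervals, and each class of shorter genes was above them too, the lowest being genes of up to 20 kb with 22.6% untreated. When any annotated start of the gene was allowed, the shares were 25.4% (20.9 to 30.4) and 27.6% (23.0 to 32.7), beside 30.9% and 33.5% in all shorter genes and 25.8% and 27.3% in genes of up to 20 kb, so here the long genes did not stand apart from the shortest.

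Most long genes with a peak had a single one. In the untreated list 86 genes had 1 peak, 22 had 2, 2 had 3 and 1 had 5. In the treated list 85 had 1, 25 had 2, 5 had 3 and 1 had 4. No peak in either list was found in 184 of the 323 genes (57.0%, 51.5 to 62.3), beside 50.6% of all coding genes, just below that interval. In genes of up to 20 kb it was 57.5%, so having no peak is not particular to the long genes. The long genes without a peak include RBFOX1, a splicing regulator and the longest record, PTPRD, a receptor phosphatase of the synapse, and DMD, which encodes dystrophin. Of the 71 genes over 1 Mb, 39 had none. Within the set, density fell from 1.12 per Mb in both lists in the 81 shortest genes (500 to 574 kb) to 0.287 (0.195 to 0.407) untreated and 0.360 (0.256 to 0.493) treated in the 81 longest (959 to 2474 kb). The share of genes with a peak went from 44.4% and 43.2% of the shortest to 33.3% and 39.5% of the longest, with overlapping intervals.

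The genes nearest the limit of 500000 bp had few peaks on either side. Just under it, CACNA2D1 at 497513 bp had 1 untreated and 2 treated peaks, ITPR2 at 497843 bp had 0 and 1, and DIAPH3 at 498346 bp had 1 and 1. Just over it, AFF2 at 500057 bp had 0 and 0, ANO5 at 500909 bp had 2 and 2, and SPOCK3 at 501413 bp had 1 and 0.

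**Figure D1:**
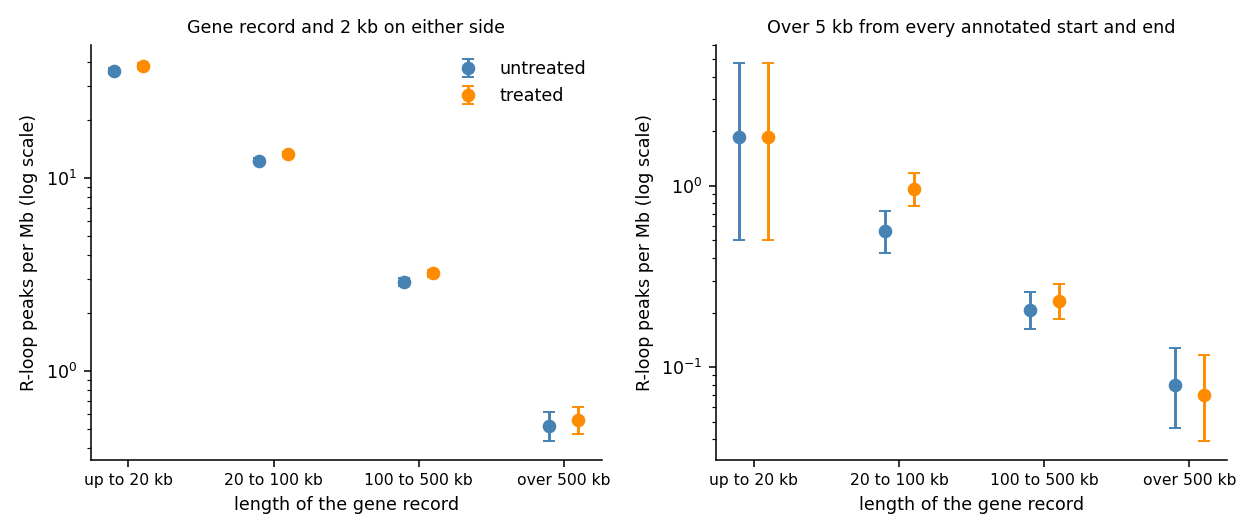
R-loop peaks per Mb (log axis) by length of the gene record, for whole windows (left) and for territory over 5 kb from every annotated transcript start and end (right); points are the untreated and treated lists and bars 95% exact Poisson intervals. Density in the long genes was 0.518 and 0.559 per Mb in windows and 0.0795 and 0.0702 per Mb in the interior.

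Inside the long genes, away from annotated starts and ends, peaks were rare. Over the 214 Mb that lie more than 5 kb from every annotated transcript start and end of any gene, there were 17 untreated peaks (0.0795 per Mb, 0.0463 to 0.127) and 15 treated peaks (0.0702 per Mb, 0.0393 to 0.116). The same territory in genes of 100 to 500 kb held 0.206 (0.162 to 0.259) and 0.231 (0.184 to 0.286) per Mb, above the intervals of the long genes. In genes of 20 to 100 kb it held 0.562 and 0.956 per Mb. The fall of density with gene length thus remained after starts and ends were left out.

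Where peaks occurred, the long genes differed from the shorter ones in their place. Each pair of a gene and a peak was put, by the midpoint of the peak, at the start of the record, at another start of the same gene, at the start of another gene (each within 2 kb), within 5 kb of a transcript end on the strand of the peak, or elsewhere. In the long genes 59 of 141 untreated pairs (41.8%, 34.0 to 50.1) and 64 of 154 treated pairs (41.6%, 34.1 to 49.5) lay at the start of the record, beside 50.6% and 51.4% in shorter genes, just above the intervals. A further 37 (26.2%, 19.7 to 34.1) and 51 (33.1%, 26.2 to 40.9) lay at another start of the same gene, beside 11.1% and 11.7% in shorter genes. Peaks elsewhere made up 14.2% (9.37 to 20.9) and 10.4% (6.50 to 16.2), beside 2.40% and 2.49%. Transcript ends were less common places, at 12.1% (7.67 to 18.5) and 8.44% (5.00 to 13.9) beside 21.9% and 20.4%. In both lists these 3 shares of all shorter genes fell outside the intervals. Against genes of 100 to 500 kb, where other starts took 14.9% and 15.6% and peaks elsewhere 5.83% and 5.46%, the same held for starts and for elsewhere. At transcript ends it held in the treated list (16.2%) but not in the untreated one (16.7%). Starts of another gene took 5.67% (2.90 to 10.8) untreated and 6.49% (3.57 to 11.5) treated in the long genes. They were more common in all shorter genes, at 14.1% untreated and with a treated share that was also above its interval. In genes of 100 to 500 kb they took 10.1% and 9.88%, inside the intervals. Within 2 kb of any start of the same gene, the record start included, lay 68.1% untreated and 74.7% treated. All shorter genes had 61.7% and 63.1%, and genes of 100 to 500 kb had 67.3% and 68.5%. The untreated interval includes both comparison shares. The treated interval (67.3 to 80.9) includes that of genes of 100 to 500 kb and lies above that of all shorter genes. The median distance from the start of the record was 65703 bp untreated and 32198 bp treated, beside 1418 and 1204 bp in shorter genes, but the median distance to the nearest start of the same gene was 436 and 305 bp, beside 561 and 502 bp.

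**Figure D2:**
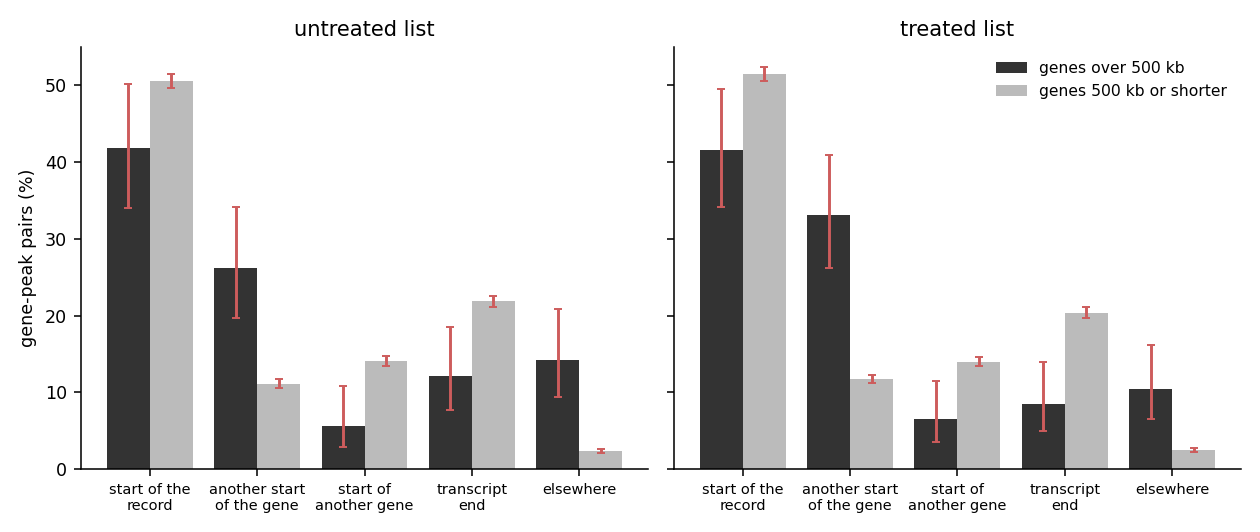
Place of peaks in genes over 500 kb and in shorter coding genes, as a percent of gene-peak pairs in each list, with 95% Wilson intervals. Another start of the same gene took 26.2% and 33.1% of pairs in the long genes, beside 11.1% and 11.7%.

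**Figure D3:**
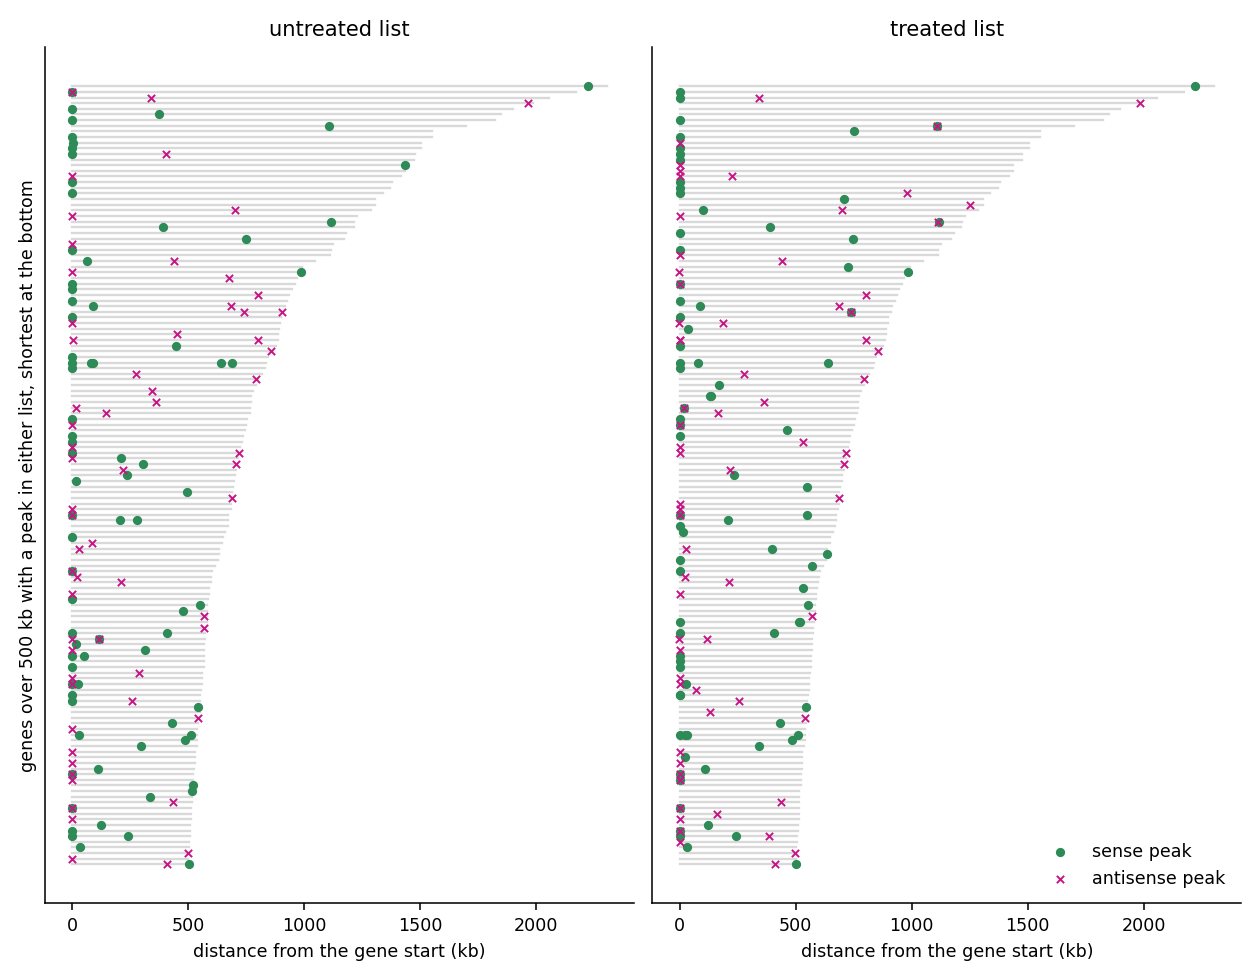
Every peak in the long genes that have one, by distance of its midpoint from the start of the record (kb), with 1 grey line per gene as long as its record; circles are peaks on the strand of the gene and crosses peaks on the other strand. Peaks gather at 0 and are thinly spread over the rest of the records.

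CNTNAP2, a neurexin-family adhesion protein with a record of 2305 kb, gives an example of a peak at an inner start. Its only peak was an identical 500-bp peak in both lists at chr7:148036312-148036811, on the gene's strand and 2223 kb after the start of the record, with its midpoint 9 bp from the inner start whose upstream bases are printed above. DLG2, a scaffold of the postsynaptic density, had a shared 750-bp peak on its strand 0.181 kb after the start of the record, and in the untreated list also a 500-bp peak on the other strand at the start of TMEM126B. MAST4, a kinase, had shared sense peaks at the start of the record and at an inner start 408 kb away. NPAS3, a transcription factor of the nervous system, had antisense peaks at 3.03 kb untreated, at 2.40 and 3.40 kb treated, and an identical antisense peak in both lists at 803 kb, all within 2 kb of a start of the gene. EGLN3, a prolyl hydroxylase that marks HIF for destruction, had a shared peak 512 kb into its record at an inner start. Its other 3 treated peaks, at 1.10, 21.1 and 31.0 kb, lay at or near SPTSSA, a gene inside the record on the same strand, and which gene they belong to cannot be told apart.

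The strand column of each list was compared with the strand of the gene. It was taken as written, since the sources used here do not say whether it names the labelled strand or its complement. If it names the complement, sense and antisense, G and C, and the sign of GC skew trade places throughout. Right after the start of the record, at 0 to 2 kb, 33 of 37 untreated peaks (89.2%, 75.3 to 95.7) and 34 of 41 treated peaks (82.9%, 68.7 to 91.5) of the long genes were on the gene's strand, beside 87.5% and 86.2% in shorter genes. In the 2 kb upstream it was 1 of 22 (4.55%, 0.807 to 21.8) and 2 of 23 (8.70%, 2.42 to 26.8), beside 23.9% and 24.2%. The untreated upstream interval lies just below the share of all shorter genes. Genes of 100 to 500 kb had 14.6% and 16.2% there, inside both intervals. Near starts the long genes thus had the strand pattern of shorter genes, sense after the start and antisense before it. More than 100 kb after the start it was not seen. There 34 of 66 untreated peaks (51.5%, 39.7 to 63.2) and 36 of 71 treated peaks (50.7%, 39.3 to 62.0) were sense, beside 73.9% (69.8 to 77.6) and 68.9% (64.8 to 72.7) in shorter genes over 100 kb after their start. This range has no upper limit, so it reaches farther in the long genes, and place was not matched. Near a transcript end, at any distance, 47.1% and 38.5% of pairs were sense in the long genes, beside 84.9% and 83.6% in shorter ones. In the interior 11 of 17 untreated (64.7%, 41.3 to 82.7) and 10 of 15 treated peaks (66.7%, 41.7 to 84.8) were sense, beside 86.9% (80.4 to 91.4) and 83.5% (77.7 to 88.0), and here the intervals overlap. Over all distances the sense share was 56.0% (47.8 to 64.0) and 55.2% (47.3 to 62.8), beside 69.6% and 68.8% in all shorter genes. In genes of 100 to 500 kb it was 64.1% and 62.4%, just above the untreated interval and inside the treated one.

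**Figure D4:**
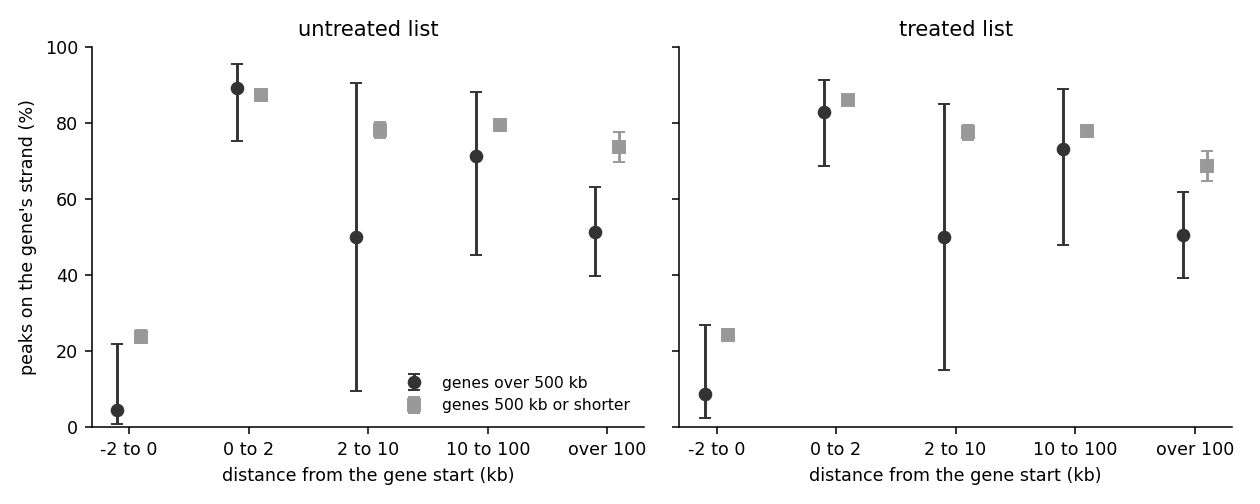
Share of peaks on the strand of the gene (%) by distance of the midpoint from the start of the record (kb), for genes over 500 kb and shorter coding genes, with 95% Wilson intervals. Over 100 kb from the start the long genes were at 51.5% and 50.7% and the shorter genes at 73.9% and 68.9%.

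Antisense peaks were set against other genes that run the other way. Of 62 untreated antisense peaks in the long genes, 31 (interval 37.9 to 62.1%) overlapped a gene record on the strand of the peak, as did 29 of 69 treated ones (42.0%, 31.1 to 53.8). In shorter genes 53.3% and 52.1% of antisense peaks did, inside both intervals, so this overlap is not particular to the long genes. With the 2 kb before such a record and the 10 kb past its end added, where transcription can run on, it was 42 (67.7%, 55.4 to 78.0) and 40 (58.0%, 46.2 to 68.9), of which 27 and 24 lay at a coding gene. This wider count was made for the long genes alone. Over 100 kb after the start of the long gene it was 22 of 32 and 21 of 35 by the wider count, and 11 (34.4%, 20.4 to 51.7) and 12 (34.3%, 20.8 to 50.8) by overlap of the record alone, beside 43.0% and 36.8% in shorter genes over 100 kb after their start.

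Several of these were wide peaks where a long gene and a neighbour meet end to end. Past the end of ULK4, a putative kinase, 718 kb from its start, an antisense peak 2000 bp wide untreated and 1500 bp wide treated lay inside the record of CTNNB1, which encodes β-catenin. Past the end of MTUS2, a microtubule-associated protein, one lay at 688 kb in both lists beside the end of SLC7A1, a cationic amino acid transporter (1750 and 1000 bp wide). Inside KCNAB1, a potassium channel subunit, one lay at 499 kb untreated and 498 kb treated beyond the end of SSR3, a subunit of the translocon-associated complex (1250 and 2000 bp wide). Inside ARHGAP6, a GTPase-activating protein, one lay at 542 kb in both lists beyond the end of HCCS, which attaches haem to cytochrome c. Inside RARB, a retinoic acid receptor, an antisense peak at 906 kb beyond the end of TOP2B was in the untreated list only. In all, 6 untreated and 5 treated pairs had their midpoint past the end of the record of the long gene.

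Other peaks lay at the starts of neighbours or nested genes. Inside MACROD2, a mono-ADP-ribosyl hydrolase, an identical 750-bp antisense peak in both lists lay 342 kb from the start, at the start of FLRT3, a membrane adhesion protein. Past the end of CAMTA1, a transcription factor, a shared sense peak 986 kb from its start lay at the start of VAMP3, a vesicle protein on the same strand. Inside ENSG00000285713 an antisense peak at the start of HHIP, an inhibitor of hedgehog signalling, was in the untreated list only.

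Pairs of neighbouring starts had the same ambiguity. ADK, adenosine kinase, had an identical antisense peak in both lists next to the start of AP3M1. SUPT3H, a subunit of the SAGA complex, had an identical antisense peak in both lists 436 bp from its start, upstream and over the record of RUNX2. STK3, a kinase of the Hippo pathway, had a shared antisense peak at the start of OSR2.

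The 139 long genes with a peak in either list were compared for presence in each. A peak was present in both lists in 88 of them (63.3%, 55.0 to 70.9), beside 73.7% of all coding genes with a peak, above that interval. In genes of 100 to 500 kb with a peak it was 66.5%, inside the interval. It was present in the treated list only in 28 (8.67% of the 323 genes, beside 7.55% of all coding genes) and in the untreated list only in 23 (7.12%, beside 5.43%), so as shares of all genes these were near the background. Of the genes with a peak, treated only made up 20.1% (14.3 to 27.6), beside 15.3% of all coding genes with a peak. Untreated only made up 16.5% (11.3 to 23.6), beside 11.0%, just below that interval, and 13.3% in genes of 100 to 500 kb, inside it. Among the longest genes with a treated peak only were PDE4D, a phosphodiesterase with a peak at an inner start 754 kb from the start of the record, GPC5 and GPC6, both glypicans with a sense peak at the start of the record, RBMS3, an RNA-binding protein, NAALADL2, PRKG1, a cGMP-dependent kinase, and WWOX. The PRKG1 peak lay at the start of CSTF2T, a gene inside it, and the GPC5 peak lay just past the end of MIR17HG, the host gene of a miRNA cluster on the same strand. The longest with an untreated peak only were LRP1B, a lipoprotein receptor-related protein, CTNNA3, an α-catenin, SPAG16, SDK1, EPHA6, ENSG00000285713, LRRTM4 and FSTL5. Apart from the named rule, and chosen after its values were seen, MECOM, a transcription factor, had 0 untreated and 3 treated peaks, at 2.42, 516 and 517 kb, all sense.

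Taken by peak, 94 of 140 untreated peaks (67.1%, 59.0 to 74.4) overlapped a treated peak by at least 1 bp, and 96 of 151 treated peaks (63.6%, 55.7 to 70.8) an untreated one. Shorter genes had 75.7% and 70.4%. The untreated interval lies below the share of all shorter genes and the treated interval includes it, and both include the 71.8% and 64.5% of genes of 100 to 500 kb, so lower sharing is not particular to the long genes. Thus 46 and 55 peaks were not shared, beside 25.2% and 30.5% of the whole lists. Sharing rose with width. Of 500-bp peaks 50.7% were shared in both lists (39.2 to 62.2 untreated, 39.1 to 62.3 treated), beside 65.2% and 55.9% in shorter genes. Of peaks of 1000 bp or more, 32 of 33 untreated (97.0%, 84.7 to 99.5) and 22 of 28 treated (78.6%, 60.5 to 89.8) were shared, beside 87.8% and 88.4%. Peaks of 500 bp were 49.3% (41.1 to 57.5) and 44.4% (36.7 to 52.3) of peaks in the long genes. They were 41.3% and 42.5% in all shorter genes and 50.2% and 51.0% in genes of 100 to 500 kb, all inside the intervals. Identical borders and strand were found for 45 peaks, which is 32.1% of the untreated and 29.8% of the treated ones, close to the 32.6% and 30.2% in shorter genes.

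**Figure D5:**
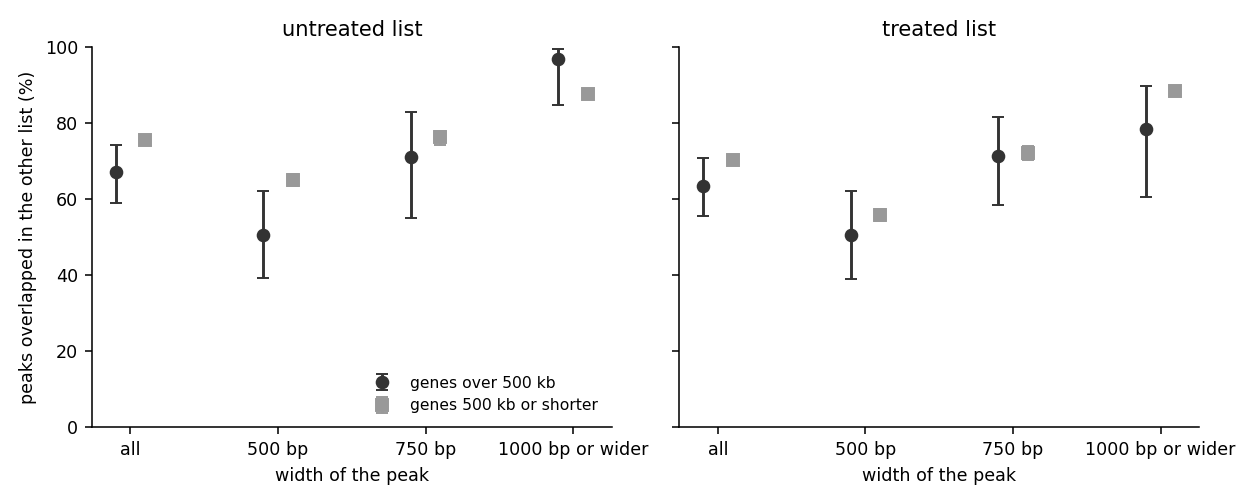
Share of peaks that overlap a peak of the other list (%) by width, for genes over 500 kb and shorter coding genes, with 95% Wilson intervals. In the long genes it was 50.7% of 500-bp peaks in both lists, and 97.0% and 78.6% of peaks of 1000 bp or more.

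Peaks that were not shared seldom had a peak of the other list nearby on their own strand. Of the 46 unshared untreated peaks in the long genes, 0 had a treated peak on the same strand within 5 kb (0%, up to 7.71), beside 309 of 2125 (14.5%, 13.1 to 16.1) in shorter genes. Of the 55 unshared treated peaks, 1 had such a neighbour (1.82%, 0.322 to 9.61), beside 354 of 2797 (12.7%, 11.5 to 13.9). Peaks are denser around shorter genes, and the part of density in this difference was not tested. On either strand and in either list, another peak lay within 1 kb of 6 of the 46 (13.0%, 6.12 to 25.7) and of 12 of the 55 (21.8%, 12.9 to 34.4), as at the starts of ADK and DLG2, where peaks of opposite strand adjoin. By place, 24 of the 55 unshared treated peaks lay at another start of the same gene and 18 at the start of the record. Of the 46 unshared untreated peaks these numbers were 10 and 15.

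The genes at common fragile sites were counted from a list of 18, all of them over 500 kb. A peak was present in 11 untreated and 10 treated, and in 12 in either list, which is 66.7% (43.7 to 83.7) beside 43.0% of all 323 long genes, just below that interval. Of all coding genes 49.4% had a peak in either list, inside the interval, so the share was not set apart from that background. These genes are part of the 323, and the list was made with earlier results of these data known. FHIT, a dinucleoside hydrolase and tumour suppressor, had an identical 500-bp sense peak in both lists 1.50 kb after its start. IMMP2L, a mitochondrial inner membrane peptidase, had an identical 1250-bp sense peak in both lists 0.876 kb after its start. In DAB1, an adaptor of reelin signalling, the sense peak at 0.482 kb untreated and 0.732 kb treated lay over the record of OMA1 on the same strand. WWOX, an oxidoreductase with WW domains, had a single treated antisense peak, upstream, with its midpoint 249 bp from its start. NBEA, which acts in vesicle traffic, had an untreated peak at the start of its record and a treated antisense peak at 534 kb, near MAB21L1. MACROD2 had, besides the FLRT3 peak, a treated sense peak 0.486 kb after its own start. DMD, LSAMP, AUTS2, RORA, DPYD and IL1RAPL1 had no peak.

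The 4 other lists of the same kind lay on both sides of the 43.0%. Of 46 genes of adhesion and the synapse, 13 had an untreated peak, 16 a treated one and 19 either (41.3%, 28.3 to 55.7). Of 17 ion channels and receptors, 2 had an untreated peak, 2 a treated one and 3 either (17.6%, 6.19 to 41.0), the lowest share of the 5 lists. Of 25 genes of signalling and traffic, 10, 11 and 12 did (48.0%, 30.0 to 66.5). Of 18 genes of transcription, chromatin and RNA, 6 had an untreated peak and 10 a treated one. Either list held a peak in 55.6% of them (33.7 to 75.4). The interval of the channels and receptors lies below 43.0%, and those of the other 3 lists include it. Treated only and untreated only were 6 and 3 genes of adhesion and the synapse, 1 and 1 of channels and receptors, and 2 and 1 of signalling and traffic. They were 4 and 0 genes of transcription, chromatin and RNA, and 1 and 2 of the fragile site genes. Of all 323 long genes these were 8.67% and 7.12%, and of all coding genes 7.55% and 5.43%.

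GC content of the peaks was close to that in shorter genes. The median was 58.8% untreated and 58.9% treated in the long genes, beside 56.8% and 58.2% in shorter ones. Peaks at the start of the record had 61.5% and 61.7%, and interior peaks 55.8% and 55.4%, where interior peaks of shorter genes had 50.2% and 52.0%. GC skew, the excess of G over C on the strand of the peak, had a median of -0.021 and -0.024, beside 0.000 and -0.011. A run of GGG on that strand was found in 68 of 69 untreated and 67 of 67 treated 500-bp peaks, and in 99.7% and 99.8% of those in shorter genes, so that its presence separates nothing.

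Tandem repeats were found in a few peaks. A peak was counted when over 50% of its 12-base words occurred more than once in it, which was so for 5 of 140 untreated and 3 of 151 treated peaks (3.57%, 1.53 to 8.09, and 1.99%, 0.678 to 5.68), beside 0.685% and 0.677% in shorter genes and 1.24% and 1.40% in genes of 100 to 500 kb. The untreated interval lies above the share of all shorter genes and the treated interval holds the share of genes of 100 to 500 kb. All of them lay elsewhere by the places above, 5 of 20 such peaks (25.0%, 11.2 to 46.9) and 3 of 16 (18.8%, 6.59 to 43.0), beside 9.54% and 9.69% in shorter genes, below the untreated interval and inside the treated one. Genes of 100 to 500 kb had 11.3% and 14.4%, inside both intervals. In the interior of the long genes it was 4 of 17 (23.5%, 9.56 to 47.3) and 3 of 15 (20.0%, 7.05 to 45.2), beside 10.4% and 11.0% in shorter genes, which both intervals include. Interior peaks of genes of 100 to 500 kb had 9.33% untreated, just below the interval, and 13.1% treated, inside it. In CELF2, an RNA-binding protein, the G-rich array printed above carried an identical 750-bp sense peak in both lists at chr10:11325751-11326500, 486 kb after the start of the record and 118677 bp from the nearest start of the gene, with a GC skew of 0.95. In GSE1, a subunit of a histone deacetylase complex, a shared sense peak at 242 kb treated and 241 kb untreated had a GC skew of -0.38. In PTPRN2, a phosphatase-like protein of secretory granules, a shared antisense peak at 440 kb had a skew of -0.65 untreated and -0.64 treated, and an untreated sense peak at 65.7 kb a skew of -0.27. In SDK1, an adhesion protein of the synapse, an antisense peak at 676 kb was in the untreated list only. The arrays are thus G-rich on the peak strand in CELF2 and C-rich in PTPRN2 and GSE1. How reads were placed among repeat copies was not tested.

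A set of interspersed peaks shared sequence with each other. Comparing all peaks of the long genes by words of 16 bases, 19 peaks, 12 untreated and 7 treated, in 14 genes shared at least 60 words with another gene's peak. This family was chosen after its sequences were seen and carries no test. Its genes were RABGAP1L, CTNNA3, ANO5, TRHDE, BCAS3, LRRTM4, DOCK3, ENSG00000282278, ADGRL3, SUPT3H, CADPS2, PLCB1, ADGRV1 and SEMA3A, and CDK14 fell just below with 42 words. All 19 peaks were on the strand of the gene, 15 in one orientation of the sequence and 4, in ANO5 and ENSG00000282278, in the other. Of these peaks 7 lay within 2 kb of an annotated start of the gene and 8 were shared between the lists. The shared ones are 4 in each list, so the same place is counted in both lists and the 19 are not separate places. Their GC content ranged from 51.3 to 61.0%. In genes of 100 to 500 kb, 22 untreated and 31 treated peaks carried the sequence, with 18 and 26 sense pairs of a gene and such a peak. A lean to the gene's strand is thus not particular to the long genes. The sequence resembles the 5′ end of LINE-1, a mobile element with its own promoter, from general knowledge, and no repeat annotation was used.

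RABGAP1L, a GTPase-activating protein, had the most peaks of the long genes over both lists, 5 untreated and 3 treated, all sense, while in the treated list alone EGLN3 had the most with 4. Its family peaks lay 79.7 kb after the start of the record, where an identical 500-bp peak was in both lists with its midpoint 253 bp from an annotated inner start, and at 689 kb in the untreated list. In TRHDE, a peptidase that degrades thyrotropin-releasing hormone, an identical 500-bp family peak in both lists lay at 553 kb, 71636 bp from a start of the gene. In CTNNA3, PLCB1, ADGRV1 and BCAS3 the family peak lay 103, 97, 120 and 92 bp from an annotated inner start, so that a start is annotated at the repeat. In LRRTM4 it lay 0.127 kb after the start of the record. In ADGRL3, DOCK3, SUPT3H and CADPS2 it was an untreated peak away from any start, and in SEMA3A a treated one.

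Copies of the sequence were far more common than peaks on them. The windows of the long genes held 703 copies, of which 12 (1.71%) had an untreated and 8 (1.14%) a treated peak, beside 90 (1.27%) and 129 (1.83%) of 7061 copies in the genome. Of the 703 copies, 460 were read in the main orientation on the strand of the gene and 243 on the other strand. Copies of this family are alike over long stretches, and the placement of reads among them was not tested.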

How the data were processed

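The deposited files are lists of R-loop peaks, 1 per condition, with 4 columns (chromosome, start, end, strand) and no height, p-value or depth. To make them, per the study's methods, Trim Galore served for trimming, Bowtie2 for alignment (hg19) and Picard MarkDuplicates for removal of duplicates, and the authors defined R-loops from 2 replicates. Widths are mostly multiples of 250 bp, so borders are coarse. Both lists carry the label of replicate 1, and whether they stand for both samples is not given in them. Their 10231 and 11085 peaks equal the numbers that the study reports for untreated and treated cells. Input and signal were not analysed here.

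Gene records and transcripts came from GENCODE release 44 mapped to GRCh37, and bases from the GRCh37 assembly. Overlaps and intervals were computed in Python 3.11.15 with pandas 2.3.3, scipy 1.17.1 and pysam 0.24.0, and were tested on simulated data and against bedtools. Peaks are counted once per list in densities and sharing, and once per gene in place and strand. Start positions are assigned before ends. The members, lists, named genes (most peaks, 1 list only, longest, deepest, fragile sites, nearest the length limit) and alternatives were chosen with earlier results of these data known. No test across features was run, since each condition has 1 list. Some members named by these rules are counted but not reported here.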

Additional observations from a re-analysis of the deposited data

How the results depend on the processing

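No paired analysis was possible because the lists, 1 per condition, allow no test between samples. For 12 values, 74 alternatives were computed, of which 47 stayed within the interval of the value reported. The others follow, untreated before treated. Density was 0.790 and 0.879 per Mb in genes over 300 kb, 0.274 and 0.345 in genes over 1000 kb, 0.263 and 0.311 with peaks of 750 bp or wider, and 0.363 and 0.381 without peaks within 1 kb of a start of another gene. The percent of long genes with a peak was 20.4 and 23.8 with peaks of 750 bp or wider, 25.1 and 25.7 without peaks near a start of another gene, and, treated, 30.4 for canonical transcripts over 500 kb. The percent of peaks within 2 kb of the start was 28.6 and 30.8 without peaks near a start of another gene, 68.1 and 74.7 when any start of the gene counted, and, treated, 51.0 in genes over 300 kb. The percent on the gene's strand was 66.7 untreated in genes over 1000 kb. The percent shared was 50.7 and 50.7 for 500-bp peaks, 97.0 and 78.6 for peaks of 1000 bp or wider, 83.1 and 73.8 for 750 bp or wider, and, treated, 71.4 for 750-bp peaks and 52.9 in genes over 1000 kb. These follow from which genes or peaks were kept. Depth behind each peak is unknown, so a gene without a peak may hold R-loops below the calling limit.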
